A study of Mus musculus with 9 samples.

Results

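The BCL2 family controls the mitochondrial route to apoptosis. Members were taken by name from the deposited expression table of mouse embryonic stem (ES) cells sorted by their level of Myc. Of 10 genes looked for, 9 were among the gene names of that table, which holds 13499 genes. Bcl2 itself was not among them, by name or by identifier, and is not analysed here. The others were the anti-apoptotic genes Bcl2l1 and Mcl1, the effectors Bax and Bak1, and the BH3-only genes Bcl2l11, Bbc3, Pmaip1, Bid and Bad.

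The study compared C57BL/6 ES cells, cultured pluripotent cells kept on gelatine with LIF, in populations of Low, Medium and High C-myc. Each population has 3 libraries, numbered 1 to 3 and called biological replicates in the labels. Sorting was on a cytometer by GFP-Myc or EYFP, and the labels do not say which reporter served which sample. All groups carry the same strain and culture labels, and no other genotype, treatment or clone is given. Myc RNA was 26.0 ± 1.75 in Low, 67.1 ± 2.54 in Medium and 106 ± 5.71 in High (normalized counts, SD, n = 3 each), which only checks the labels. All levels below are normalized read counts as deposited, with library totals near those of CPM. Whole reads could be recovered from them and numbered 11114936 to 16755566 per library.

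Apoptosis by this route is decided at the outer membrane of mitochondria. Bax and Bak1 proteins can assemble into pores there, which release cytochrome c and switch on caspases. Anti-apoptotic members hold them in check, and BH3-only proteins, made or activated under stress or loss of growth signals, bind the anti-apoptotic members or the effectors and tip the balance towards death. High Myc activity is known from other systems to lower the threshold for this step. RNA levels say nothing direct about protein, and several members are regulated mainly after translation.

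Myc binds DNA at the E-box, whose canonical form is CACGTG. Promoter windows from RefSeq, on GRCm38.p6, run from 250 bases before to 50 bases after a start site. Windows of 9 of the 10 genes were searched (15 windows, Pmaip1 left out), and 2 of them held CACGTG, a palindrome that reads the same on both strands. Among 32851 windows of all genes, 7.15% held it. One lies before a start of Bbc3, 64 bases upstream. Bax has it 9 bases before its start and again 35 bases after it, and 0.594% of all windows held 2 or more. The first 250 bases of these windows are shown for Bbc3 and Bax, and for the most upstream start of Bcl2l1, which rose and has no CACGTG in any of its windows. Capitals mark CACGTG. The windows are chr7:16310181-16310430 on the plus strand for Bbc3, chr7:45466899-45467148 on the minus strand for Bax and chr2:152831729-152831978 on the minus strand for Bcl2l1, each printed 5′ to 3′ along the gene.
Bbc3: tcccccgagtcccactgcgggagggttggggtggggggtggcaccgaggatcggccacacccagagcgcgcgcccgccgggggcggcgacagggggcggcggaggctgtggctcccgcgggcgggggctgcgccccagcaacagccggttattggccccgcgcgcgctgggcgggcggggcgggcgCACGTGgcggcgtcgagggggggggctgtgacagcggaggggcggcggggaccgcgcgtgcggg
Bax: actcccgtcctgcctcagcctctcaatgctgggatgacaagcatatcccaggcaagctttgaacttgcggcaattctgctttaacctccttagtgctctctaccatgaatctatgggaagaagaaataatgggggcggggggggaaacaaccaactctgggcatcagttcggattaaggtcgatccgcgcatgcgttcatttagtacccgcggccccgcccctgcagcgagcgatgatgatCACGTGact
Bcl2l1: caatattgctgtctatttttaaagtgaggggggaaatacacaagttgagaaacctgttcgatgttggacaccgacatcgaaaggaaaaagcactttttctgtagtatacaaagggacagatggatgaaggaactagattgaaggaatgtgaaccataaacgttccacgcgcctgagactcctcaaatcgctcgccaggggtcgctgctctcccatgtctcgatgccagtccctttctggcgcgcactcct
The p53 half-site was found in 1 member window, that of Bax, and in 8.36% of all windows. These matches describe the letters of the windows and show no binding.

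Between High and Low, 4 of the 9 measured members passed the test. Bcl2l1, the gene for Bcl-xL, and the effector Bak1 were higher in High, and the BH3-only genes Bbc3 (Puma) and Pmaip1 (Noxa) were lower. Of all 13499 genes, 28.4% passed in the same comparison (limma, adjusted p under 0.05), 13.8% as higher and 14.6% as lower, so with 9 members the count is not set apart from the background. The members' median log2 fold change was -0.15, against 0.00 over all genes (-0.0002464 unrounded). High and Low libraries did not overlap for 6 members, and for 41.6% of all genes. Fold changes are on a log2(value + pseudocount) scale and are somewhat understated for low genes.

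**Figure D1:**
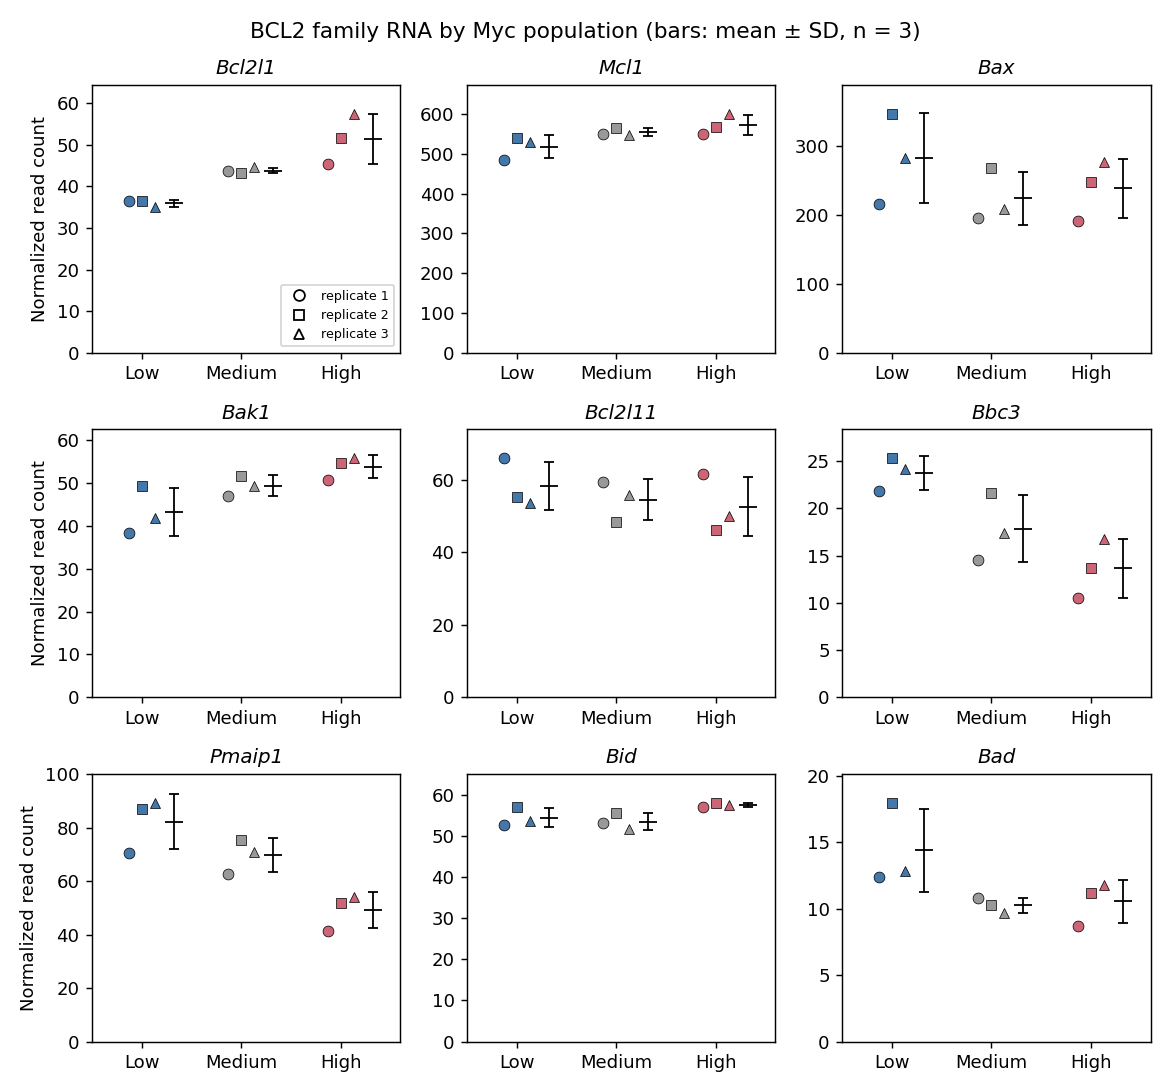
Normalized read counts (y axis, from 0, scaled per gene) of the 9 measured BCL2 family members in each library, by Myc population (x axis). Symbols stand for replicate numbers, and the bars beside them for mean ± SD (n = 3). Bcl2l1 climbs from Low through Medium to High, and Bbc3 and Pmaip1 descend. For Bax and Bcl2l11 each population overlaps both others.

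Levels differed widely between members. Per kilobase of the longest annotated transcript, Bax averaged 226 ± 46.3 normalized counts (SD over 9 libraries) and Mcl1 160 ± 9.19. The 7 others averaged 7.65 to 24.6 per kilobase. In falling order of the mean over all libraries these were Pmaip1, Bid, Bak1, Bcl2l1, Bcl2l11, Bbc3 and Bad, and neighbours in this order overlapped over libraries, except that Bcl2l1 (13.6 or more) stayed above Bcl2l11 (13.1 or less). The order changed with population. Pmaip1 led these 7 in Low, at 30.2 per kilobase, but at 18.0 in High it stood below Bid (23.8), Bak1 (22.5) and Bcl2l1 (20.1). The ranges of Bax (174 to 315) and Mcl1 (142 to 176) also overlapped, while Mcl1 stood clear of Pmaip1, at most 32.8. Bax and Mcl1 lay at percentiles 97.9 and 96.8 of all genes on this scale. The reads behind a value ranged from 114 to 201 for Bad, the least covered, and from 6021 to 9064 for Mcl1.

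Among the anti-apoptotic genes, Bcl2l1 had 36.4, 36.6 and 35.0 normalized counts in Low libraries 1 to 3, 43.7, 43.2 and 44.6 in Medium, and 45.5, 51.6 and 57.5 in High. All libraries of one population lay apart from all those of the next, and the High libraries spread most. High averaged 51.5 ± 6.02 and Low 36.0 ± 0.864, a ratio of 1.43. The log2 fold change was 0.50 (SE 0.09, limma adjusted p = 0.00356), and it passed under all 23 alternative settings, with adjusted p up to 0.0202. The gene lies at chr2:152780668-152831728 on GRCm38.

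Mcl1, a short-lived protein that restrains Bak1 and Bax, had 485, 539 and 530 in Low, 549.6, 565 and 547 in Medium, and 551, 567 and 601 in High. Low lay below both other populations, while Medium and High overlapped. High averaged 573 ± 25.6 and Low 518 ± 28.7, a ratio of 1.11. This did not pass (log2 fold change 0.15, 95% interval -0.02 to 0.32, limma adjusted p = 0.18).

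Of the effectors, Bak1 had 38.4, 49.4 and 41.8 in Low, 47.0, 51.8 and 49.4 in Medium, and 50.8, 54.8 and 55.8 in High. Every High library lay above every Low one, while Medium overlapped both. High averaged 53.8 ± 2.67 and Low 43.2 ± 5.62, a ratio of 1.25, and the log2 fold change of 0.32 (SE 0.10) passed narrowly (limma adjusted p = 0.0418). The call was lost with quantile normalization (limma adjusted p = 0.0969), with no variance trend (0.0550), with only the 2 populations compared (0.0837) and in 8 of the 9 fits that left out a library, with adjusted p up to 0.129. With the replicate number as a block the adjusted p was 0.0114 (limma). Bak1 exons overlap Ggnbp1 on the opposite strand, and strand use in counting is not given, so reads of the pair cannot be told apart.

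Bax had 216, 347 and 283 in Low, 196, 268 and 208 in Medium, and 191, 248 and 276 in High. Each population spanned much of the range of the others. High averaged 238 ± 43.4 and Low 282 ± 65.3, and the log2 fold change of -0.23 did not pass (95% interval -0.67 to 0.20, limma adjusted p = 0.405). Within replicate numbers 1 to 3 the log2 difference of High minus Low was -0.18, -0.48 and -0.03. A gene on the same strand, Gm45808, overlaps exons of Bax.

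Of the BH3-only genes, the 2 that passed, Pmaip1 and Bbc3, are classic transcriptional targets of p53, and Noxa protein binds Mcl1 in preference to Bcl-xL. Bax, the only member with a p53 half-site in the windows searched, which left out Pmaip1, did not pass (limma adjusted p = 0.405). A part of p53 in these differences was not tested. Pmaip1 had 70.4, 87.0 and 89.3 in Low, 62.8, 75.5 and 70.9 in Medium, and 41.4, 51.7 and 54.2 in High. High lay below all other libraries, while Medium overlapped Low. High averaged 49.1 ± 6.79 and Low 82.2 ± 10.3, a ratio of 0.597, with a log2 fold change of -0.73 (SE 0.13, limma adjusted p = 0.00287).

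Bbc3, whose protein binds all anti-apoptotic members, had 21.8, 25.3 and 24.2 in Low, 14.6, 21.6 and 17.4 in Medium, and 10.5, 13.7 and 16.7 in High. Low lay above both other populations, which overlapped each other. High averaged 13.6 ± 3.12 and Low 23.8 ± 1.79, a ratio of 0.574, with a log2 fold change of -0.78 (SE 0.18, limma adjusted p = 0.01). These values rest on 154 to 310 reads per library. Both calls held under all 23 alternatives, with adjusted p up to 0.0397 for Bbc3 and 0.0173 for Pmaip1.

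Bad, which is held inactive by phosphorylation when growth factors are present, had 12.4, 18.0 and 12.8 in Low, 10.8, 10.2 and 9.70 in Medium, and 8.72, 11.2 and 11.7 in High. Low lay above both other populations, with 1 high library, replicate 2. High averaged 10.6 ± 1.62 and Low 14.4 ± 3.12, and the log2 fold change of -0.40 did not pass (SE 0.16, limma adjusted p = 0.0854). It passed with the replicate block (limma adjusted p = 0.0495), where 5 of 9 members and 38.8% of all genes did, and without Low replicate 1 (0.0337). Gpr137 overlaps Bad exons on the opposite strand.

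Bcl2l11 encodes Bim, which in lymphocytes and other cells sets off apoptosis after growth factor loss. It had 65.9, 55.3 and 53.6 in Low, 59.2, 48.3 and 55.8 in Medium, and 61.6, 46.1 and 49.96 in High. The populations overlapped, and in each the first replicate was the highest. The log2 fold change for High against Low was -0.15 (95% interval -0.44 to 0.14, limma adjusted p = 0.421).

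Bid, which is cut by caspase 8 and so links death receptors to mitochondria, varied least within populations (coefficient of variation 3.02%). It had 52.6, 57.1 and 53.7 in Low, 52.99, 55.6 and 51.6 in Medium, and 57.0, 58.1 and 57.4 in High. High averaged 57.5 ± 0.545 and Low 54.4 ± 2.35, and these overlapped by 1 Low library, replicate 2. The log2 fold change of 0.08 had a 95% interval of -0.08 to 0.24 (limma adjusted p = 0.456). Its exons overlap those of Bcl2l13 on the opposite strand.

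**Figure D2:**
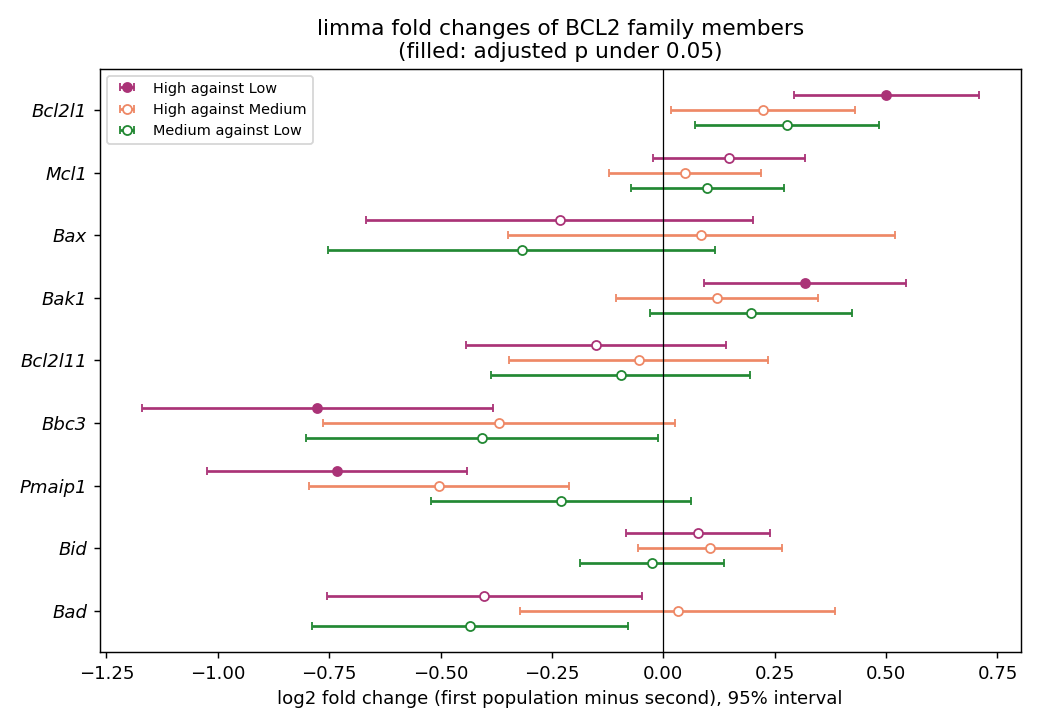
Log2 fold changes (x axis, first population minus second) of the 9 members in the 3 comparisons, with 95% intervals from limma. Filled points passed an adjusted p of 0.05, which only Bcl2l1, Bak1, Bbc3 and Pmaip1 did, and only for High against Low. The Bax intervals are the widest shown.

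Fewer genes passed in the steps between neighbouring populations than for High against Low. For High against Medium, 0 of 9 members passed with limma, as did 0.407% of all genes. At an unadjusted p under 0.05 there were 2 members, Bcl2l1 and Pmaip1, and 10.9% of all genes (limma). Of the members edgeR called 0 and DESeq2 called 1, Pmaip1, beside 63 and 260 of all 13499 genes. Pmaip1 averaged 49.1 ± 6.79 in High and 69.7 ± 6.43 in Medium, with no overlap and a log2 fold change of -0.50 (SE 0.13, limma adjusted p = 0.148). Bcl2l1 had a log2 fold change of 0.22 in this step (limma adjusted p = 0.41). High and Medium libraries did not overlap for 3 members, Bcl2l1, Pmaip1 and Bid, and for 20.1% of all genes.

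For Medium against Low, 0 of 9 members passed with limma, while 12% of all genes did. The members at an unadjusted p under 0.05 numbered 3, namely Bcl2l1, Bbc3 and Bad, a share close to the 31.3% of all genes (limma). Of the members edgeR and DESeq2 called 0 each, beside 1490 and 2012 of all 13499 genes. Bcl2l1 averaged 43.8 ± 0.677 in Medium and 36.0 ± 0.864 in Low, a log2 fold change of 0.28 (limma adjusted p = 0.0783). Bbc3 averaged 17.9 ± 3.53 in Medium and 23.8 ± 1.79 in Low, a log2 fold change of -0.41 (limma adjusted p = 0.149). Bad averaged 10.2 ± 0.544 in Medium and 14.4 ± 3.12 in Low, a log2 fold change of -0.43 (limma adjusted p = 0.0989). Libraries did not overlap for 4 members, Bcl2l1, Mcl1, Bbc3 and Bad, and for 29.6% of all genes. Without Low replicate 1, 4 members passed, namely Bcl2l1 as higher and Bax, Pmaip1 and Bad as lower, and so did 5123 of all 13499 genes.

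Medium was also set against the mean of Low and High on the log2 scale. By limma 0 of 9 members passed, and so did 0% of all genes. At an unadjusted p under 0.05 there were 0 members and 5.67% of all genes (limma), and edgeR and DESeq2 called 0 members. With no gene of the whole table passing, this does not show that the members lie midway in Medium. The largest such difference was that of Bad, -0.23 on the log2 scale with a 95% interval of -0.54 to 0.07.

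Ratios between members within a library do not depend on how libraries were scaled. They can still shift with a trend on transcript length that differs between libraries, described below, and are not corrected for it. Per kilobase, the ratio of Pmaip1 to Mcl1 was 0.182, 0.203 and 0.211 in Low, 0.143, 0.167 and 0.163 in Medium and 0.0942, 0.114 and 0.113 in High. The ratio of Bbc3 to Bcl2l1 was 0.849, 0.980 and 0.978 in Low, 0.472, 0.706 and 0.554 in Medium and 0.327, 0.376 and 0.412 in High. For both pairs every library of one population lay apart from those of the others. The mean ratio in High was 0.539 of that in Low for Pmaip1 to Mcl1 and 0.397 for Bbc3 to Bcl2l1. These pairs repeat the changes of their members and are given as a description, with no test. How often ratios of other genes lay apart was not computed.

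The ratio of Bax to Bcl2l1 was 9.80, 11.2 and 11.2 in High and 13.9, 22.1 and 18.9 in Low, without overlap. Medium, at 10.5, 14.5 and 10.9, overlapped both. Bax, at 1100 nt, is much shorter than Bcl2l1, at 2568 nt, so the length trend can enter this ratio. The ratio of Bak1 to Mcl1 went the other way, at 0.134 ± 0.00336 in High and 0.119 ± 0.0105 in Low. High and Low did not overlap here either, though narrowly, with 0.132 the lowest in High and 0.1313 the highest in Low. For Bcl2l11 to Mcl1 they were 0.0625 ± 0.0116 in High and 0.0769 ± 0.0133 in Low, and the libraries overlapped.

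**Figure D3:**
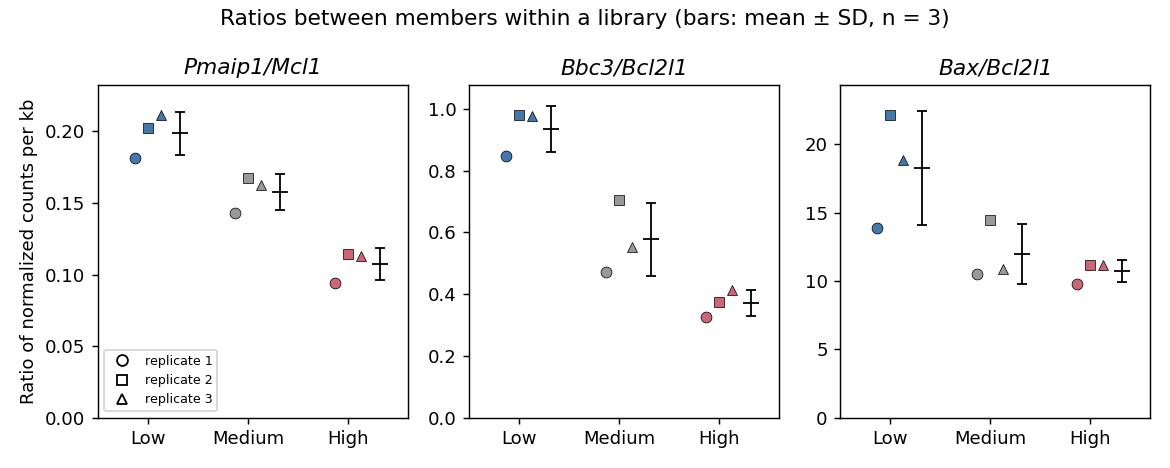
Ratios of normalized counts per kilobase (y axis, from 0) within each library, by Myc population. Symbols stand for replicate numbers and bars for mean ± SD (n = 3). The ratios of Pmaip1 to Mcl1 and Bbc3 to Bcl2l1 descend from Low to High without overlap, and that of Bax to Bcl2l1 overlaps in Medium. The ratio of Bak1 to Mcl1, which was higher in High, and that of Bcl2l11 to Mcl1 are not drawn.

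Members also differed in how much of their variation went with the replicate number rather than with Myc. Population took 86.6% of the log2 sum of squares of Bcl2l1 and 81.8% of that of Pmaip1, and replicate number 3.62% and 16.9%. For Bax and Bcl2l11 this was turned round, with 24.7% and 15.9% for population and 59.4% and 72.6% for replicate number. Over all genes the medians were 44.2% and 23.9%. Bax was lowest and Bcl2l11 highest in replicate 1 of every population. With population means removed, 28 of the 36 pairs of members correlated positively over the 9 libraries, and the 8 negative pairs were those with Bcl2l11. These points share libraries, so the correlations describe the libraries as much as the genes.

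Transcript length moved with this pattern. Bax is the shortest member, at 1100 nt, and Bcl2l11 the longest, at 5036 nt. For this, each gene's log2 level was taken relative to its own mean over the 9 libraries. The median for long transcripts (4729.5 nt or more) was then compared with that for short ones (2100 nt or less). On this relative scale long stood above short by 0.28, 0.30 and 0.25 in replicate 1 of Low, Medium and High. In replicate 2 the difference was -0.59, -0.05 and -0.06 in Low, Medium and High, and in replicate 3 it was -0.27, 0.25 and -0.07, so Medium replicate 3 resembled the first replicates. With the trend on length removed, replicate number took 27.2% for Bcl2l11 and 51.9% for Bax. The 4 calls for High against Low stayed, with log2 fold changes of 0.56 for Bcl2l1, 0.38 for Bak1, -0.70 for Bbc3 and -0.69 for Pmaip1 (limma adjusted p = 0.00047, 0.00214, 0.00251 and 0.000634).

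**Figure D4:**
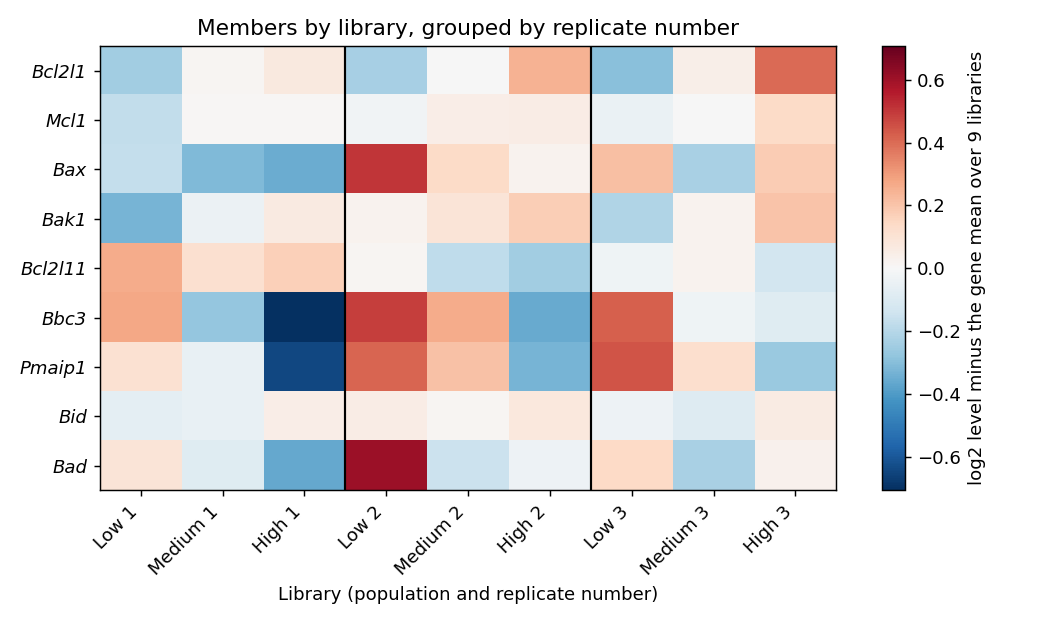
Log2 level of each member (rows) in each library (columns, grouped by replicate number), minus the gene's mean over 9 libraries, from blue (lower) to red (higher). Bbc3 and Pmaip1 fall from Low to High within every replicate number, whereas Bax is blue and Bcl2l11 red throughout replicate 1.

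Bbc3 had the largest log2 fold change of the members in size for High against Low, -0.78 against -0.73 for Pmaip1. That order turned round with quantile normalization, without Low replicate 1 and without High replicate 1. The 5 genes whose log2 levels followed Bbc3 most closely over the 9 libraries were Ttc5, Vgll1, 2900011O08Rik, Gstz1 and Mboat7, with Pearson correlations of 0.978, 0.971, 0.969, 0.967 and 0.965. Their log2 fold changes for High against Low were -0.25, -0.91, -0.35, -0.68 and -0.25, a direction that follows from choosing them for their likeness to Bbc3. Vgll1 was scarce, at 0.429 ± 0.223 in High and 1.70 ± 0.216 in Low.

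Of 15 further members of the family, 11 were measured. Between High and Low 1 was higher, 4 were lower and 6 did not pass, where 13.8% of all genes were higher and 14.6% lower. The BH3-only gene Bik was at 3.11 ± 0.754 in High and 9.44 ± 2.09 in Low, a log2 fold change of -1.34 (limma adjusted p = 0.00217). Bnip3 and Bnip3l, BH3-like proteins known for removing mitochondria and for induction by low oxygen, were at 25.2 ± 1.84 and 72.1 ± 0.937 in High and at 60.0 ± 8.30 and 93.7 ± 2.17 in Low. Hrk, a BH3-only gene best known in neurons, was at 4.54 ± 0.150 in High and 2.08 ± 0.220 in Low, and rose 2.19-fold. So BH3-only genes did not all move one way. Bcl2l14 was lower (log2 fold change -0.48, limma adjusted p = 0.035), a call lost in 6 of 9 fits without a library.

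Of the caspases, those that passed were lower in High. Casp2 and Casp6 had log2 fold changes of -0.47 and -0.52 (limma adjusted p = 0.00736 and 0.0236), and the call for Casp6 was lost in 4 of 9 fits without a library. In all, 3 of 11 caspases and their inhibitors were lower and 0 higher, a share close to the 28.4% of all genes. With the replicate block the inhibitors Xiap and Birc6 passed as well, as higher, and 38.8% of all genes passed. Of 14 genes of the mitochondrial step, Aifm1 was higher and Mff lower, by log2 fold changes of 0.24 and -0.27 (limma adjusted p = 0.0386 and 0.0416). Those calls were lost in 7 and 8 of 9 fits without a library, and with the block 4 genes of the list passed, 2 each way, beside 38.8% of all genes.

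Of 8 measured genes of the death receptor arm, 2 were higher and 1 lower, where 28.4% of all genes passed. With the replicate block 3 were higher and 1 lower, beside 38.8% of all genes passing. The receptor gene Tnfrsf10b was at 24.3 ± 1.48 in High and 42.2 ± 3.71 in Low. The kinase gene Ripk3 was at 11.2 ± 1.57 in High and 5.14 ± 0.509 in Low, and the receptor gene Tnfrsf1a was higher by a log2 fold change of 0.67. Casp8, which cuts Bid, stood near 1 normalized count, at 1.27 ± 0.0743 in High and 0.935 ± 0.190 in Low.

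Of 14 regulators of the family, 1 was higher and 3 were lower, a share close to the 28.4% of all genes. The kinase genes Pim2 and Pim3, whose proteins can phosphorylate and silence Bad, moved in opposite directions. Pim2 was at 86.8 ± 7.58 in High and 185 ± 20.9 in Low, and Pim3 at 183 ± 17.0 in High and 122 ± 12.0 in Low. March5, which encodes a mitochondrial ubiquitin ligase known from human cells to act on Noxa and Mcl1 protein, had a log2 fold change of -0.56 (limma adjusted p = 0.00349). With the replicate block 4 regulators were higher and 3 lower, in a fit where 38.8% of all genes passed.

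Of 21 measured p53 targets outside the family, 3 were higher and 11 lower, with a median log2 fold change of -0.51, where 13.8% of all genes were higher and 14.6% lower. With the replicate block 4 were higher and 13 lower, beside 38.8% of all genes passing. Perp and Ddit4 had log2 fold changes of -1.81 and -2.04, and Ccng1 was at 81.4 ± 1.86 in High and 164 ± 9.35 in Low. These counts were known when Pmaip1 and Bbc3 were picked out here, so they are not separate support.

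**Figure D5:**
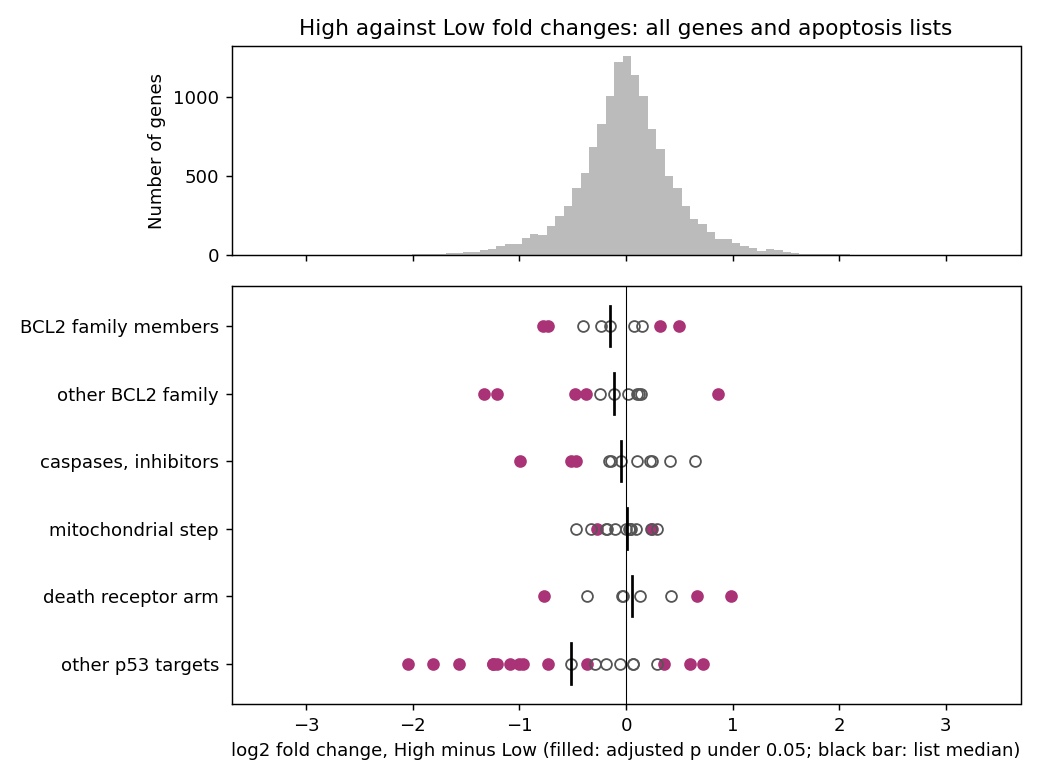
Top, the number of genes by log2 fold change of High minus Low over all 13499 genes. Bottom, the same fold change for members of each list (circles, filled where adjusted p was under 0.05), with the list median as a black bar. Most lists straddle 0, and the median of p53 targets outside the family is -0.51.

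Some markers of pluripotency and of other cell types also differed between the populations, and not every list moved one way. All 10 pluripotency markers were measured, with summed normalized counts of 4849 to 6544 in Low, 5662 to 6345 in Medium and 5910 to 6713 in High. Of these 4 were higher in High than in Low and 0 lower, among them Tdgf1, Esrrb and Klf4 with log2 fold changes of 0.70, 0.54 and 0.40. In this comparison 13.8% of all genes were higher and 14.6% lower, and the counts of each marker list stand beside those shares. With the replicate block 5 pluripotency markers were higher and 2 lower, when 38.8% of all genes passed. The 9 of 14 trophoblast markers present summed to 482 to 590 in Low, 227 to 247 in Medium and 137 to 145 in High, and 8 were lower in High than in Low. Rhox9, Rhox6 and Krt7 had the smallest adjusted p there, with log2 fold changes of -3.51, -3.23 and -2.39. Cdx2, Elf5, Hand1, Plac1 and Tpbpa were not among the gene names. The 5 of 10 primitive endoderm markers present summed to 251 to 260 in Low, 405 to 421 in Medium and 503 to 521 in High. That sum was mostly Sparc, at 428 ± 7.95 in High and 221 ± 8.62 in Low. Of the list 4 were higher, Hhex among them with a log2 fold change of 1.05, and 1 was lower, Dab2 with -1.13. Gata6, Gata4, Sox17, Pdgfra and Foxq1 were not among the names. The 8 of 10 fibroblast markers present summed to 51.6 to 64.0 in Low, 56.7 to 81.4 in Medium and 41.0 to 56.8 in High. Between High and Low, Thy1 was higher and Tagln lower, by log2 fold changes of 0.69 and -0.99. With the replicate block 2 fibroblast markers were higher and 1 lower. Whether other cell types were present, and any part of theirs in the members' differences, was not tested. Fewer cells with a transcript and less of it per cell cannot be told apart in such bulk libraries.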

How the data were processed

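RNA was sequenced in 9 libraries, single-end with 61 nt reads per the labels' protocols. Tools listed in the submitters' processing notes are RSEM 1.17, limma, Picard and cutadapt, without their roles. No source used here gives the build, annotation or strand setting of the counting. The authors deposited a normalized signal per gene, close to CPM. In each library 100% of its values were whole multiples of the value of 1 read, within 0.001 read. Of the 13499 genes, 85 had no name.

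Groups came from the labels. limma 3.58.1 (R 4.3.3) with a variance trend was fitted to log2(signal + pseudocount) of all genes and 9 libraries, without covariates beside population. As pseudocount, 1 CPM was added on each library's own total. Genes needed 1 CPM in at least 3 libraries, which kept all 13499. The Benjamini-Hochberg method adjusted p-values over the whole table, with a threshold of 0.05, and p measures the spread between these libraries. Counting limits the precision of low genes. edgeR 4.0.16 and DESeq2 1.42.0 on recovered reads, other pseudocounts, filters and scalings, and leaving out libraries were alternatives. Scripts were tested on simulated data, where 27% of 100 genes changed 1.5-fold and 76% of 100 changed 2-fold passed for High against Low. Far more genes passed in the real data, so these shares need not hold there. A member that did not pass can still differ. No pair of replicates agreed within sampling noise (chi-square per degree of freedom from 2.38 to 57.5).

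The labels share replicate numbers across populations. Same-numbered High and Low libraries deviated from their population means together, with correlations of 0.53, 0.26 and 0.18, above the 0.1 required, so for High against Low a fit with a replicate block is given where it changes a call. High replicate 3 with Low replicate 2 reached 0.31, so the numbers are not singled out. For comparisons with Medium the requirement was not met, and their blocked values stand with the other alternatives. The block was fitted to all 9 libraries, so the blocked values for High against Low also rest on the replicate numbers of Medium. Lengths and coordinates came from GENCODE M21 on GRCm38, with the longest transcript per gene (99.36% of genes matched). Promoters came from RefSeq.

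Members, lists and tests were chosen with earlier results of these data known. All members were named; from each other list, up to 3 genes with the smallest adjusted p for High against Low among those that passed were named, with every further family member that passed. Xiap, Birc6 and Casp8 were added after their values were seen. One gene that this rule would name is not reported here.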

Additional observations from a re-analysis of the deposited data

How the results depend on the processing

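Of 621 alternative values for the 9 members in 3 comparisons, 578 kept their direction and their side of the threshold, 20 passed where they had not, 11 no longer passed, all of them Bak1 for High against Low, and 12 changed sign. For High against Low, 4 members passed, and 3 to 4 did when a library was left out. Over all genes 3832 passed, 2345 to 5846 without a library, 5239 with the replicate block and 5958 with the length correction and the replicate block, which also let Mcl1 pass (adjusted p = 0.0418). The upper end was without Low replicate 1 and the lower without Low replicate 3, and without High replicate 2 the number was 2510.

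For High against Medium 55 genes passed and 11 (without Medium replicate 3) to 206 (without Low replicate 1) when a library was left out. The number was 84 with no variance trend, 203 with the replicate block, 260 with DESeq2 (36.5% of them higher, against 20%), 309 with the length correction, 491 with that and the replicate block, and 170 with only the 2 populations. Members numbered 0, 0 without a library, and 1, Pmaip1, in each of the fits with the replicate block (adjusted p = 0.0142), DESeq2 (0.034), the length correction (0.0369) and both corrections (0.00339). For Medium against Low 1621 genes passed, 527 (without Low replicate 3) to 5123 (without Low replicate 1) when a library was left out, 3656 with the replicate block, 2700 with the length correction, 3793 with both and 656 with only the 2 populations. Members numbered 0, 0 to 4 without a library, 4 with the replicate block (Bcl2l1 higher, Bbc3, Pmaip1 and Bad lower), 2 with the length correction (Bcl2l1 and Bak1, both higher) and 3 with both. For the position of Medium relative to the other populations, each alternative that holds all 3 populations gave 0 members.

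The sign changes were all of values near 0. For High against Medium, Bax had -0.004052 without Medium replicate 1 and -0.02922 without High replicate 3 (-0.02922 to 0.2359 over the libraries left out), Bcl2l11 0.007383 without Medium replicate 1 and 0.03245 without High replicate 2 (-0.1734 to 0.03245), and Bad -0.01745 with the length correction, with or without the replicate block, and -0.004518, -0.01237 and -0.04353 without Medium replicate 3, High replicate 2 and High replicate 3 (-0.04353 to 0.1521). For Medium against Low, Bid had 0.05196 with the length correction, with or without the block, and 0.00812 without Low replicate 2 (-0.05533 to 0.00812). The cause was not tested. An estimate of library weights stopped before it converged, giving Low replicate 3 a weight of 310, so no value is taken from it.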
